A study of Mus musculus with 2 samples.

Results

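The 10 genes described here, Trem2, Gpnmb, Fabp5, Apoe, Lpl, Cd36, Lipa, Abca1, Lgals3 and Cd9, code for proteins that take up, hydrolyse, carry or export lipid in macrophages, or that are used beside them by lipid-laden macrophages. They were chosen by name out of the 32287 genes of the count matrix, with their levels in these same cells already known. Every level, ratio and order below is therefore a description, and no test was made on it. All 10 symbols were found in the matrix, and all 10 passed the minimum of 50 UMIs (unique molecular identifiers, each counting 1 captured transcript) in each of the 4 comparisons between cell classes.

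The cells came from tibialis anterior and gastrocnemius muscle of S100GFPtg mice at 2 months of age, 7 days after crush of the sciatic nerve. These mice carry wild-type Sod1 and express green fluorescent protein from an S100B promoter, a reporter meant to mark Schwann cells. Viable cells of the GFP+ gate were captured in droplets and sequenced from the 3′ end as 1 library, and the GFP- library of the same muscle was not analysed here beyond its list of barcodes. The methods speak of pooled male mice and the series design of a single animal, so the number of mice is uncertain, and with 1 library there is no replicate.

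The library held 170648616 UMIs over 36400 barcodes, with a median of 2130. Of these barcodes 8894 (24.4%) had at least 5000 UMIs, 8701 of those passed the filters on genes and mitochondrial UMIs, and 7727 of the 8701 (88.8%) were placed in 1 class by UMIs of marker genes, none of which is among the 10. Of the 974 left out, 700 met the gates of several lineages. The library shared 372 barcodes with the GFP- library, 75 of them among the gated cells. S100b, whose promoter drives the reporter, stood at 1.32 CPM (95% interval 1.05 to 1.63) in monocytes and macrophages and at 22.8 CPM (13 to 37) in Schwann cells, whereas the reporter transcript itself stood at 451.8 CPM (446.5 to 457.1) and 665.2 CPM (606.2 to 728.3). Schwann cells by their markers were 70 of the 7727 gated cells. Monocytes and macrophages, which carried the reporter transcript but little S100b, were 5098 of them, without a further 107 that met the cycling gate.

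The 6 myeloid classes carry the description, and each is called by the markers that gated it. The Lyve1 Folr2 macrophages (3170 cells) carried genes of macrophages resident in connective tissue, and the C1q MHC class II macrophages (806 cells) carried complement C1q and antigen-presentation genes. The Ly6c2 Chil3 monocytes (477 cells) carried genes of blood-derived inflammatory monocytes, and the Spp1 F10 macrophages (338 cells) carried Spp1, F10, Mmp12, Atp6v0d2 and Syngr1. A further 210 cells met the Spp1 F10 and the Ly6c2 Chil3 gates together, and 97 met the Spp1 F10 and the Lyve1 Folr2 gates together. These doubly gated barcodes had median depths of 15814 and 15558 UMIs, against 16814 in Spp1 F10 macrophages, 11300 in Lyve1 Folr2 macrophages and 10629 in monocytes. Whether some of them hold 2 cells was not tested. Levels are given as CPM, the UMIs of a gene summed over the cells of a class per 1000000 UMIs of that class, with the exact Poisson 95% interval in parentheses. That interval covers counting error only.

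In a macrophage, lipoprotein particles, oxidised lipid and the debris of dying cells enter through scavenger and lipid-sensing receptors, and the cargo is hydrolysed in the lysosome. The fatty acids and cholesterol set free are bound by carrier proteins, stored in droplets, burned, or handed back to apolipoproteins by membrane transporters. After nerve crush the distal axons and their myelin break down, and macrophages in nerve and muscle clear the lipid-rich debris.

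Promoter windows of 300 bases (250 before to 50 after the annotated start, RefSeq, GRCm38.p6) were found for 8 of the 10 genes, as 10 windows. Fabp5 and Lpl had none in that table. The windows were searched on both strands for the AP-1 pattern TGANTCA (N is any base), which is wider than the AP-1 site TGASTCA (S is C or G). They were also searched for the E-box CACGTG, the longer lysosomal-gene (CLEAR) core TCACGTGA that contains it, the MITF M-box TCATGTG and the PU.1 core AGAGGAAGT. The 3 windows that held a match are shown, with the match in capitals.
Trem2, AP-1 match, plus strand of chr17:48346151-48346450: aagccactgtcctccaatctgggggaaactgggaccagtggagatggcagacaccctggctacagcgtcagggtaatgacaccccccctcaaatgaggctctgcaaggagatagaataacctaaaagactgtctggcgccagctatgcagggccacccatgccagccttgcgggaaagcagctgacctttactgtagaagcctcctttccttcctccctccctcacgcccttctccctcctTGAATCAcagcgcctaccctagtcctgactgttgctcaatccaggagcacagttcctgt
Gpnmb, AP-1 match, plus strand of chr6:49036268-49036567: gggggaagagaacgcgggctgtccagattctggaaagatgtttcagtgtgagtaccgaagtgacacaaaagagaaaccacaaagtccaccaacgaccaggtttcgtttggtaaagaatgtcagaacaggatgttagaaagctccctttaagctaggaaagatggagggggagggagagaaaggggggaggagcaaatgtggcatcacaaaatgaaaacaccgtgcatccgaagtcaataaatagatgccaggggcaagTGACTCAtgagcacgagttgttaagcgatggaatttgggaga
Abca1, E-box match, minus strand of chr4:53159846-53160145: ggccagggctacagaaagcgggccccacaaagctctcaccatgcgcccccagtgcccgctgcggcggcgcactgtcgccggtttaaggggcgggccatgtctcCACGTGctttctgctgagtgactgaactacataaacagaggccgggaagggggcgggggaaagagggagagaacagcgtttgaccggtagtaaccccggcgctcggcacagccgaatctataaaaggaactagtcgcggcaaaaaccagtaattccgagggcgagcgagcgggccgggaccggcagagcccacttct
The AP-1 pattern began 9 bases before the start of Trem2 (offset -9), as TGAATCA, and 8 bases after that of Gpnmb, as TGACTCA. Only the Gpnmb match is thus the narrower AP-1 site, and windows with that site were not counted. TGANTCA was present in 7.81% of all 32851 windows of the table and CACGTG in 7.15%. The longer core was in 0.974% of all windows, the M-box in 3.77% and the PU.1 core in 1% of them, and none of these 3 was in a window of the 10 genes. A match is a description of these letters and does not mark a bound site.

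Of the 10 genes, 8 had their highest level in a monocyte or macrophage class, out of 17 classes of at least 30 cells. The exceptions were Cd36 and Cd9, which were highest in endothelial cells. The members were named with such levels known and this count was not made over all genes, so nothing is read from it. Among the myeloid classes, Trem2, Gpnmb, Lpl, Cd36, Lipa, Lgals3 and Cd9 were highest in Spp1 F10 macrophages, Fabp5 in cells gated for Spp1 F10 and Ly6c2 Chil3 together, Apoe in Lyve1 Folr2 macrophages and Abca1 in cells gated for Spp1 F10 and Lyve1 Folr2 together. The genes thus did not share 1 order over the classes.

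**Figure D1:**
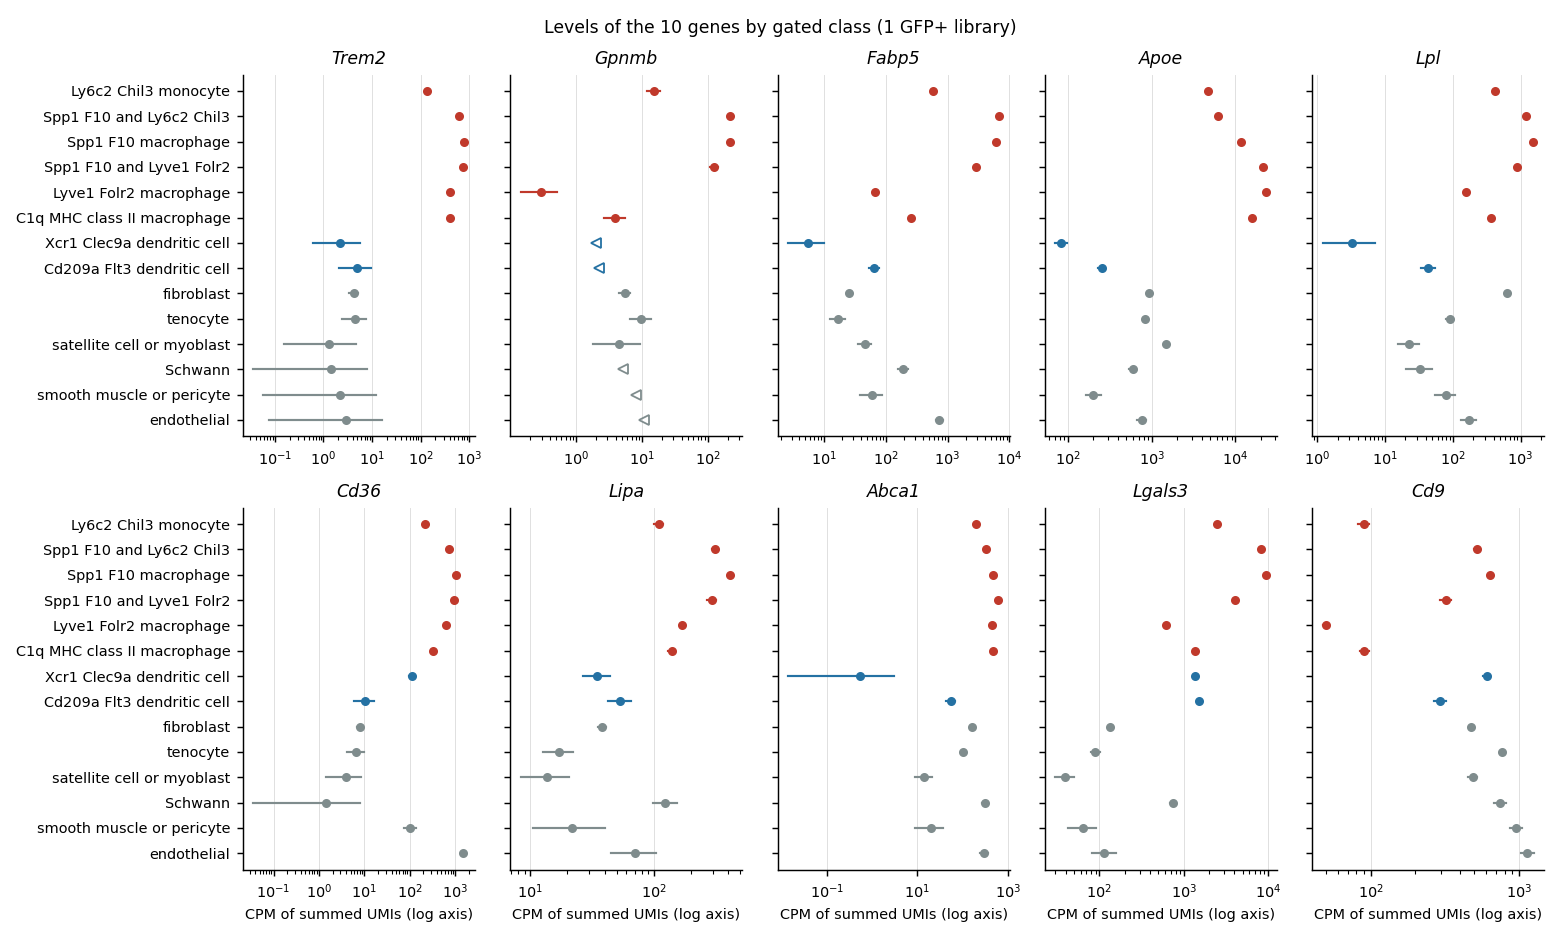
Level of each gene (CPM of summed UMIs, log axis, a separate scale for each gene) in 14 gated classes of the GFP+ library. Points are class values and bars the exact Poisson 95% interval, red marks monocytes and macrophages, blue dendritic cells and grey the other classes, and an open triangle marks the upper bound where no UMI was counted. Gpnmb reached 219.5 CPM in Spp1 F10 macrophages and 0.29 CPM in Lyve1 Folr2 macrophages, while Apoe ran the other way. Abca1 stayed within a narrow range over the macrophage classes outside the doubly gated cells, which had 328.2 and 613.6 CPM.

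Of the receptors, Trem2 (chr17:48346401-48352276, GRCm38.p6) encodes a surface receptor that binds lipids and lipoproteins and signals through the adaptor Tyrobp. It stood at 783.3 CPM (761 to 806.2) in Spp1 F10 macrophages, 609.8 (584.6 to 635.9) in cells gated for Spp1 F10 and Ly6c2 Chil3, and 747.4 (707.1 to 789.4) in cells gated for Spp1 F10 and Lyve1 Folr2. Lyve1 Folr2 macrophages had 412.8 CPM (406.4 to 419.3), C1q MHC class II macrophages 400.9 (387 to 415.1) and Ly6c2 Chil3 monocytes 138.2 (128.4 to 148.6). Spp1 F10 macrophages and the cells also gated for Lyve1 Folr2 did not differ beyond counting error, nor did the Lyve1 Folr2 and the C1q MHC class II macrophages. Trem2 was therefore present in every macrophage class, with the monocytes lowest. After each cell was thinned to 5000 UMIs, which no gated cell fell short of, a Trem2 UMI was found in 86.1% of Spp1 F10 macrophages (exact binomial 95% interval 81.9 to 89.6), 76.9% of Lyve1 Folr2 macrophages (75.4 to 78.4) and 36.3% of monocytes (31.9 to 40.8). The share was 3.51% (2.57 to 4.67) in fibroblasts, a type that should lack the gene, with a median depth of 14837 UMIs before thinning. Without thinning these shares were 94.4%, 90.3%, 49.9% and 5.23%.

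Cd36 (chr5:17781690-17888959) encodes a scavenger receptor that takes up long-chain fatty acids and oxidised lipoproteins. Its level was 1041 CPM (1016 to 1068) in Spp1 F10 macrophages, 641.1 (633 to 649.2) in Lyve1 Folr2 macrophages, 329.2 (316.6 to 342.1) in C1q MHC class II macrophages and 223.1 (210.6 to 236.2) in monocytes. The share of cells with a Cd36 UMI did not follow that order, with 67.8% (62.5 to 72.7) of Spp1 F10 macrophages and 71.8% (70.2 to 73.4) of Lyve1 Folr2 macrophages after thinning, and no order is read from these shares. The 10% of cells with the most Cd36 UMIs held 41.3% of them in Spp1 F10 macrophages and 43.6% in Lyve1 Folr2 macrophages. Endothelial cells, in which this receptor is known to import fatty acids into muscle, were higher than every myeloid class at 1498 CPM (1371 to 1634), from 38 cells.

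Of the lipases, Lpl (chr8:68880555-68906932) encodes lipoprotein lipase, which frees fatty acids from the triglyceride of lipoproteins. It stood at 1540 CPM (1508 to 1571) in Spp1 F10 macrophages, 1216 (1180 to 1253) in cells also gated for Ly6c2 Chil3, 878.9 (835.1 to 924.3) in cells also gated for Lyve1 Folr2, 427 (409.6 to 444.9) in monocytes, 363.2 (350 to 376.8) in C1q MHC class II macrophages and 159.2 (155.2 to 163.2) in Lyve1 Folr2 macrophages. Between monocytes and C1q MHC class II macrophages the order of the summed level did not hold for the median cell, which had 99 CPM in the former and 124.4 in the latter. A Lpl UMI was found after thinning in 79.9% of Spp1 F10 macrophages, 51.2% of C1q MHC class II macrophages, 47.2% of monocytes and 34.9% of Lyve1 Folr2 macrophages, against 0.926% of Xcr1 Clec9a dendritic cells.

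Lipa (chr19:34492316-34527474) encodes lysosomal acid lipase, which splits cholesteryl esters and triglycerides inside the lysosome. Its range was narrower, with 411.5 CPM (395.4 to 428.2) in Spp1 F10 macrophages, 168 (163.9 to 172.2) in Lyve1 Folr2 macrophages, 139.3 (131.1 to 147.8) in C1q MHC class II macrophages and 109.2 (100.5 to 118.5) in monocytes. The highest and the lowest of the macrophage and monocyte classes were the same as for Trem2.

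Fabp5 (chr3:10012585-10016610) encodes a cytosolic carrier of fatty acids. Its level was 6759 CPM (6674 to 6844) in cells gated for Spp1 F10 and Ly6c2 Chil3, 5964 (5902 to 6026) in Spp1 F10 macrophages and 2868 (2789 to 2949) in cells gated for Spp1 F10 and Lyve1 Folr2. It was 573.6 (553.4 to 594.4) in monocytes, 255.1 (244 to 266.5) in C1q MHC class II macrophages and 65.9 (63.3 to 68.5) in Lyve1 Folr2 macrophages. The signal was uneven in several classes. The 10% of cells with the most Fabp5 UMIs held 87.2% of them in C1q MHC class II macrophages, 80.7% in cells gated for Spp1 F10 and Lyve1 Folr2, 72.2% in monocytes and 66.8% in Lyve1 Folr2 macrophages, against 41% in Spp1 F10 macrophages. The level of 2868 CPM was thus carried by few cells, and the median cell of that class had 316.7 CPM. Mouse Fabp5 has processed copies elsewhere in the genome, and whether reads that fit several places altered its level was not tested.

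Of the efflux genes, Apoe (chr7:19696244-19701310) encodes an apolipoprotein that macrophages secrete and that accepts exported cholesterol. Its order differed from those above, with 23434 CPM (23386 to 23483) in Lyve1 Folr2 macrophages, 21290 (21073 to 21509) in cells also gated for Spp1 F10, 15697 (15610 to 15785) in C1q MHC class II macrophages, 11506 (11420 to 11593) in Spp1 F10 macrophages, 6213 (6132 to 6295) in cells gated for Spp1 F10 and Ly6c2 Chil3 and 4732 (4674 to 4791) in monocytes. The median Spp1 F10 macrophage had 5655 CPM and the median Lyve1 Folr2 macrophage 22871, and the 10% of cells with the most held 43.5% and 21% of the UMIs, so Apoe was the more uneven in the former.

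Abca1 (chr4:53030789-53159988) encodes the transporter that loads cholesterol and phospholipid onto apolipoproteins. It was close to level over the macrophages outside the doubly gated cells, with 478.4 CPM (461 to 496.3) in Spp1 F10, 448.2 (441.5 to 455) in Lyve1 Folr2 and 468 (452.9 to 483.4) in C1q MHC class II macrophages. Cells gated for Spp1 F10 and Lyve1 Folr2 had 613.6 (577.2 to 651.8). Those gated for Spp1 F10 and Ly6c2 Chil3 had 328.2 (309.8 to 347.5) and monocytes 196.5 (184.8 to 208.8). Xcr1 Clec9a dendritic cells had 1 Abca1 UMI in 108 cells, or 0.55 CPM (0.0139 to 3.07).

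Gpnmb, Lgals3 and Cd9 encode proteins that are often found with the lipid genes in foamy or phagocytic macrophages. Gpnmb (chr6:49036518-49058182), a transmembrane glycoprotein of lysosomes and the cell surface, had 1303 UMIs in 338 Spp1 F10 macrophages and 11 UMIs in 3170 Lyve1 Folr2 macrophages, or 219.5 CPM (207.7 to 231.7) and 0.29 CPM (0.145 to 0.519). It was 214.7 (199.8 to 230.3) in cells gated for Spp1 F10 and Ly6c2 Chil3, 124.5 (108.4 to 142.3) in cells gated for Spp1 F10 and Lyve1 Folr2, 15.1 (11.9 to 18.7) in monocytes and 3.95 (2.69 to 5.61) in C1q MHC class II macrophages. Gpnmb thus had its highest levels in the 3 classes that met the Spp1 F10 gate. It was found after thinning in 36.1% of Spp1 F10 macrophages, and the 10% of cells with the most held 59.3% of its UMIs, the highest such share of the 10 genes in that class. Without thinning the share was 46.4%.

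Lgals3 (chr14:47373860-47386167), the β-galactoside-binding lectin galectin-3, stood at 9532 CPM (9454 to 9611) in Spp1 F10 macrophages, 2503 (2460 to 2545) in monocytes, 1354 (1329 to 1380) in C1q MHC class II macrophages and 614.1 (606.2 to 622) in Lyve1 Folr2 macrophages. A Lgals3 UMI was found in 76.3% to 100% of the cells of each of the 6 myeloid classes after thinning, and in 36.7% of fibroblasts. The shares differed too, from 76.3% (74.8 to 77.7) in Lyve1 Folr2 macrophages to 98.8% (97 to 99.7) in Spp1 F10 macrophages. Cd9 (chr6:125460266-125494760), a tetraspanin, stood at 635.1 CPM (615 to 655.7) in Spp1 F10 macrophages, 524.6 (501.2 to 548.8) in cells also gated for Ly6c2 Chil3, 90.8 (84.3 to 97.7) in C1q MHC class II macrophages, 89.8 (81.9 to 98.2) in monocytes and 49.8 (47.6 to 52.1) in Lyve1 Folr2 macrophages.

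Spp1 F10 macrophages were then set against Lyve1 Folr2 macrophages. Of the 10 genes, 6 were at least 2-fold higher in Spp1 F10 macrophages, namely Gpnmb, Fabp5, Lgals3, Cd9, Lpl and Lipa, where 6.40% of the 12616 genes with at least 50 UMIs were. Apoe was the 1 gene at least 2-fold lower, where 26.7% of all genes tested were. Trem2, Cd36 and Abca1 lay under 2-fold. The log2 ratio of Gpnmb was 9.56 (95% interval 8.72 to 10.57), the highest of all genes tested. It was 8.32 with a minimum of 2000 UMIs per barcode and 8.90 with the marker minima doubled. The 97 cells that met both gates are in neither class and held 214 Gpnmb UMIs, against 11 in the Lyve1 Folr2 class. How the ratio would stand with them among the Lyve1 Folr2 macrophages was not tested. The log2 ratio of Fabp5 was 6.50 (6.44 to 6.56). The others were 3.96 (3.93 to 3.98) for Lgals3, 3.67 (3.59 to 3.75) for Cd9, 3.27 (3.23 to 3.32) for Lpl, 1.29 (1.22 to 1.36) for Lipa, 0.92 (0.88 to 0.97) for Trem2, 0.70 (0.66 to 0.74) for Cd36, 0.09 (0.04 to 0.15) for Abca1 and -1.03 (-1.04 to -1.01) for Apoe. Abca1 thus had the ratio nearest to 0, and the carrier Fabp5 and the 3 accompanying genes had the 4 largest. The median over all genes tested was -0.329, and with ratios centred on it Trem2 stood at 1.25, Cd36 at 1.03 and Apoe at -0.70, so these 3 lie near the 2-fold line. Centred, 12.1% of all genes tested were higher and 19.6% lower.

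Against Ly6c2 Chil3 monocytes, with the same Spp1 F10 cells on the other side, all 10 genes were at least 2-fold higher in Spp1 F10 macrophages, where 6.42% of 8882 genes tested were, and none was 2-fold lower, where 6.45% were. The members were named with such levels known, so nothing is read from this count. The log2 ratio ran from 1.28 for Apoe (1.26 to 1.30) and Abca1 (1.18 to 1.39) to 3.87 (3.54 to 4.21) for Gpnmb. Fabp5 had 3.38, Cd9 2.82, Trem2 2.50, Cd36 2.22, Lgals3 1.93, Lipa 1.91 and Lpl 1.85. Abca1 and Apoe, which did not stand higher in Spp1 F10 than in Lyve1 Folr2 macrophages by 2-fold, were thus higher in both macrophage classes than in monocytes.

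**Figure D2:**
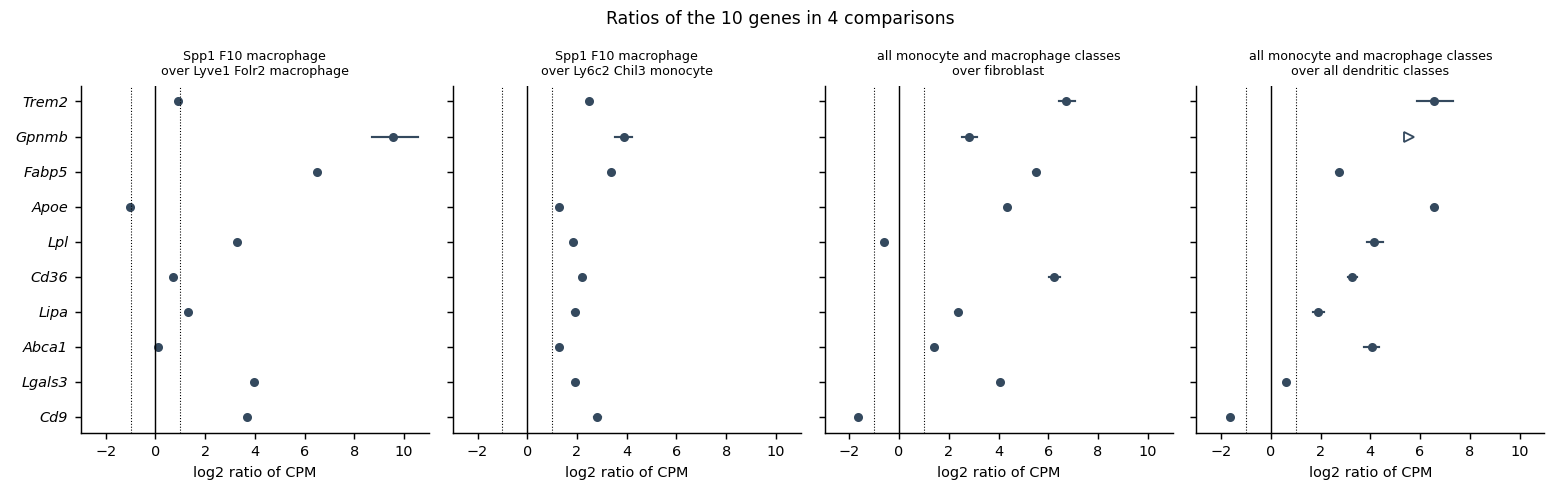
log2 ratio of CPM for each gene in 4 comparisons, with the exact conditional 95% interval. Dotted lines mark 2-fold, and the open triangle is a lower bound for Gpnmb, which had no UMI in dendritic cells. All 10 genes lie right of the 2-fold line against monocytes, while against Lyve1 Folr2 macrophages they spread from -1.03 for Apoe to 9.56 for Gpnmb.

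The gates cut a continuous scale, so the monocytes and macrophages were also read over 7 bins of the summed CPM of the Spp1 F10 markers, from 2658 cells with none to 94 cells at 5000 or more. Fabp5 stood at 63.9, 167.4, 732.8, 2785, 5768, 7157 and 8484 CPM from the lowest to the highest bin. Gpnmb stood at 0.693, 1.95, 27, 112.9, 220.4, 239.9 and 234.1 CPM, so the upper 3 bins overlapped in Gpnmb within counting error, while Fabp5 was higher in each next bin. Cd9 went from 48.2 to 1098 CPM and Lpl from 196.7 to 2245, both highest in the last bin, whereas Lgals3 was highest in the bin of 2000 to 5000 at 10147 CPM.

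Trem2 went from 365.8 to 838.9 CPM over the bins. Cd36 was between 552.2 and 607.9 CPM in the lowest 4 bins and reached 865.4, 1018 and 1177 CPM in the upper 3. Abca1 stayed between 409.9 and 449.8 CPM in all 7 bins. Apoe was 20622 CPM in the lowest bin, 21028 in the next and then lower in each bin down to 8605. The median depth of the bins was 10295 UMIs in the lowest and 16820 in the highest, and its part in these levels was not tested.

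**Figure D3:**
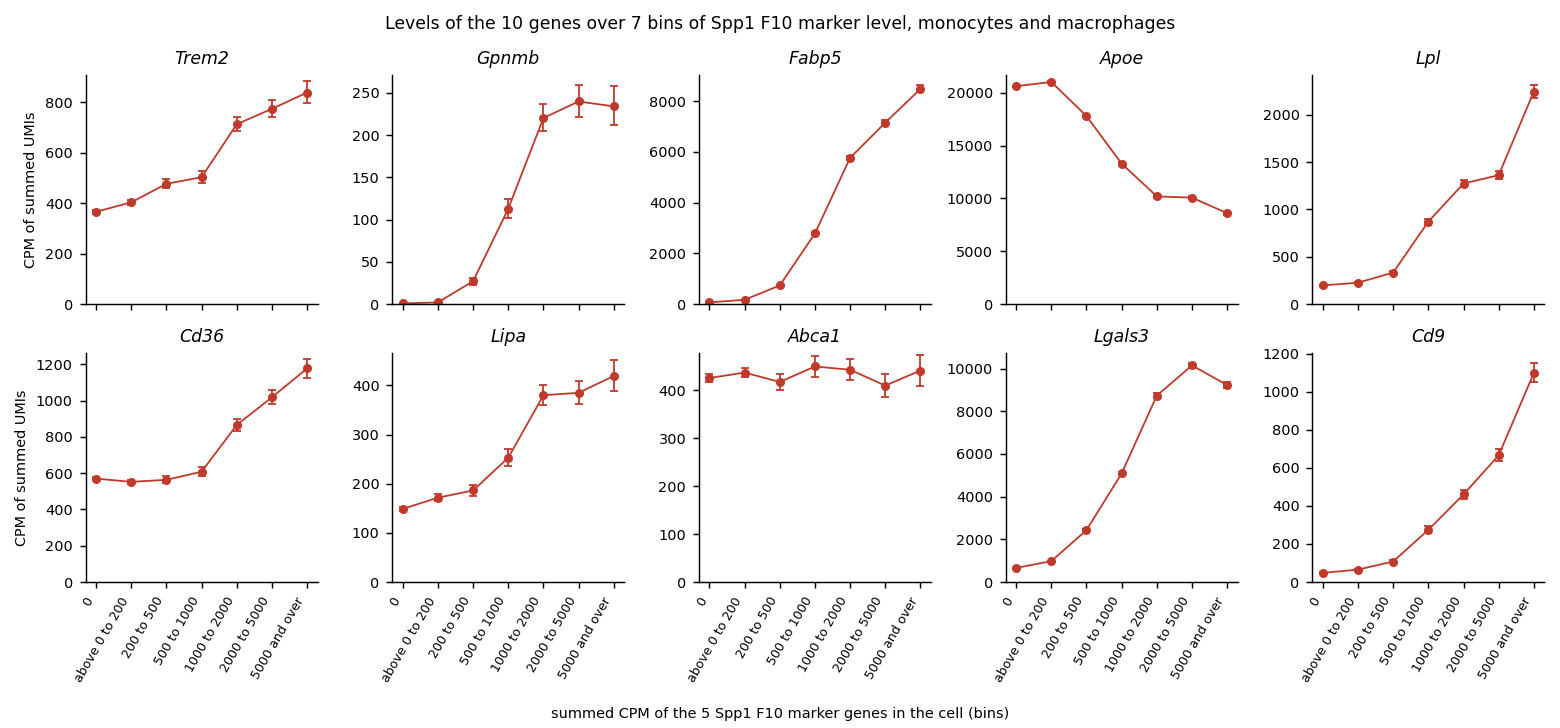
Level of each gene (CPM of summed UMIs, axis from 0) in monocytes and macrophages placed in 7 bins by the summed CPM of the 5 Spp1 F10 markers in the cell. Bars are exact Poisson 95% intervals. Fabp5, Lpl and Cd9 were highest in the last bin, Gpnmb levelled off near 230 CPM, Abca1 stayed between 409.9 and 449.8 CPM, and Apoe was lower towards the right.

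Within a class, genes were correlated among cells thinned to 5000 UMIs. These correlations are descriptions, since the cells share 1 library and their counts are low. Among the 338 Spp1 F10 macrophages the highest Spearman correlations were 0.59 for Fabp5 with Lgals3, 0.53 for Cd36 with Lgals3, 0.50 for Lpl with Cd36 and 0.49 for Trem2 with Apoe. Apoe was negatively correlated with Lpl (-0.43), Lgals3 (-0.40) and Cd36 (-0.33). Cells of this class that were rich in Apoe thus also tended to hold Trem2 and to hold less Lpl, Lgals3 and Cd36.

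In the 3170 Lyve1 Folr2 macrophages the correlations lay between -0.22 and 0.32, here with Trem2 and Apoe as the highest pair and Apoe with Cd36 as the lowest. In the 210 cells gated for Spp1 F10 and Ly6c2 Chil3, Fabp5 with Lgals3 reached 0.68 and Trem2 with Apoe 0.47, while Apoe was at -0.14 with Lpl, 0.10 with Lgals3 and 0.09 with Cd36, so the last 2 pairs did not share the sign seen in Spp1 F10 macrophages. Without thinning, Fabp5 with Lgals3 was 0.61, Trem2 with Apoe 0.52 and Apoe with Lpl -0.46 in Spp1 F10 macrophages.

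**Figure D4:**
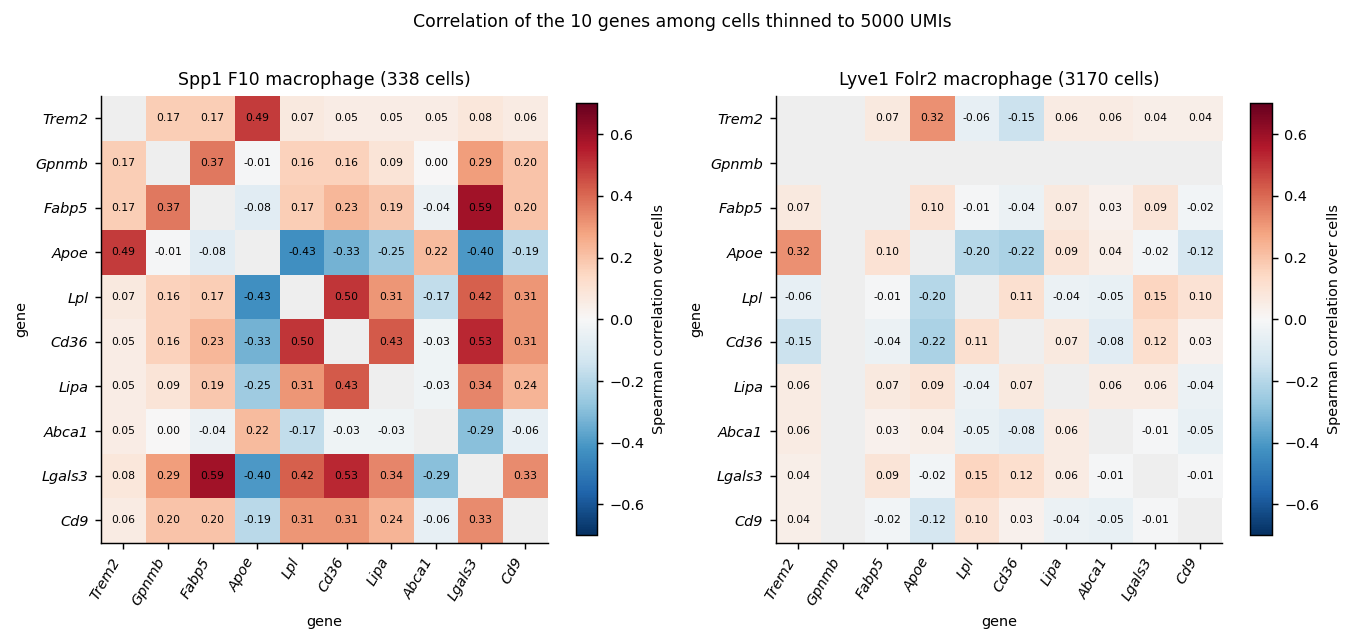
Spearman correlation of the 10 genes among single cells thinned to 5000 UMIs, in Spp1 F10 macrophages (left) and Lyve1 Folr2 macrophages (right), where red is positive and blue negative. Grey cells were not computed, and Gpnmb was left out on the right because it had 11 UMIs in that class. Fabp5 with Lgals3 is the highest pair on the left at 0.59, and Apoe is negative with Lpl, Cd36 and Lgals3.

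The Lyve1 Folr2 macrophages were not uniform in these genes. The 68 cells of that gate that also met the cycling gate had 10350 CPM of Apoe (10177 to 10525), against 23434 in the rest. They had 934.5 CPM of Cd36 (882.9 to 988.3) against 641.1, 280.5 of Trem2 (252.6 to 310.7) against 412.8, and 281.3 of Abca1 (253.3 to 311.5) against 448.2. Lpl was 256.9 (230.2 to 285.8) against 159.2, Lgals3 807.9 (760 to 858.1) against 614.1 and Lipa 117.4 (99.6 to 137.5) against 168. Cd9 was 67.8 (54.5 to 83.5) against 49.8, and the intervals of Fabp5 overlapped, with 72.4 (58.6 to 88.5) against 65.9 (63.3 to 68.5). Relative to all UMIs, cycling cells thus held less Apoe, Trem2, Abca1 and Lipa and more Lpl, Cd36, Lgals3 and Cd9. Their median depth was 18536 UMIs against 11300, and its part in these values was not tested.

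Lyve1 Folr2 macrophages with at least 40 UMIs of MHC class II genes (1312 cells) had 206.8 CPM of Lpl (199.8 to 214.1), against 125.7 (121 to 130.4) in those with fewer (1858 cells). Trem2 was 338.3 CPM (329.2 to 347.5) against 465.2 (456.2 to 474.2) and Apoe 21753 (21680 to 21827) against 24615 (24550 to 24681), so both stood lower where MHC class II was high. Cd36 was 644.3 (631.8 to 657) and 638.8 (628.3 to 649.4) and did not differ beyond counting error.

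Dendritic cells present antigen to T cells. The 107 cycling monocytes or macrophages and the 31 cycling dendritic cells were left out of the pooled classes. Of the 10 genes, 8 were at least 2-fold higher in all monocyte and macrophage classes together (5098 cells) than in all dendritic classes (249 cells), where 24.8% of 13396 genes tested were. Cd9 was the 1 gene 2-fold lower, where 7.69% were (20.1% with a minimum of 10 UMIs per gene and 11.8% with centred ratios), with 149 CPM (146 to 152.1) against 462.6 (440.7 to 485.3) and a log2 ratio of -1.63 (-1.71 to -1.56). Lgals3 differed by under 2-fold, at 2255 CPM (2244 to 2267) against 1478 (1439 to 1518). No Gpnmb UMI was found in 3 dendritic classes together. With 3 counts over the group set as a floor, Gpnmb was 46.7-fold higher in monocytes and macrophages (log2 5.55). The exact conditional 95% interval of its log2 ratio began lower, at 5.25.

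The dendritic subsets also differed among themselves. Cd36 was 112.8 CPM (97.9 to 129.4) in Xcr1 Clec9a dendritic cells (108 cells) and 10.3 (6.01 to 16.5) in Cd209a Flt3 dendritic cells (130 cells). Abca1 had the reverse order, 0.55 CPM (0.0139 to 3.07) and 54.7 (44 to 67.2). Cd9 was 606.1 (570.8 to 643) and 293.3 (267.8 to 320.7), the former not different beyond counting error from the 635.1 CPM of Spp1 F10 macrophages. The 11 Ccr7 Fscn1 dendritic cells, which carry genes of migrating dendritic cells, had 3325 CPM of Fabp5 (3045 to 3624), a value that rests on few cells.

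Outside the myeloid classes, free RNA from lysed cells can give a few macrophage UMIs to any droplet. The C1q genes, which are made by macrophages, gave a gauge of that level, at 0.392% to 1.01% of their monocyte and macrophage level in 6 other classes (fibroblasts, tenocytes, satellite cells or myoblasts, Schwann cells, smooth muscle cells or pericytes, and endothelial cells). Trem2 lay in that range or below it, from 0.291% to 0.996%, with as few as 1 UMI in Schwann cells and 81 in fibroblasts. Whether these UMIs came from free RNA or from droplets with 2 cells was not tested. In fibroblasts, tenocytes, satellite cells and Schwann cells Cd36 lay between 0.23% and 1.32%, near that range too.

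The other genes exceeded it in at least some classes. Gpnmb, with no UMI in Schwann, smooth muscle and endothelial cells, reached 5.46 CPM (4.47 to 6.61) in fibroblasts and 9.79 (6.65 to 13.9) in tenocytes, 14.1% and 25.3% of its macrophage level. In all 6 classes Cd9 was above its 149 CPM in all monocytes and macrophages together, from 471.8 CPM (462.2 to 481.6) in fibroblasts to 1141 (1030 to 1260) in endothelial cells. Spp1 F10 macrophages alone, at 635.1 CPM, stood above fibroblasts and above satellite cells or myoblasts (489.3 CPM). Abca1 reached 311.9 CPM (272 to 356.1) in Schwann cells and 304.9 (249.2 to 369.5) in endothelial cells, or 72.6% and 71% of its macrophage level. Few cells carried most of it, since the 10% of cells with the most Abca1 UMIs held 59.8% and 57.7% of them, and the median cell had 114.1 and 123.2 CPM against 331 in monocytes and macrophages. Schwann cells, the glia for which the reporter was made, also held 123.9 CPM of Lipa (99.3 to 152.9) and 753.5 of Lgals3 (690.6 to 820.5), from 70 cells. Fabp5 was 733 CPM (645 to 829.8) in endothelial cells, above the 573.6 of monocytes. Apoe was between 201.7 CPM in smooth muscle cells or pericytes and 1464 CPM (1404 to 1525) in satellite cells or myoblasts, which is 1.08% to 7.84% of its macrophage level.

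**Figure D5:**
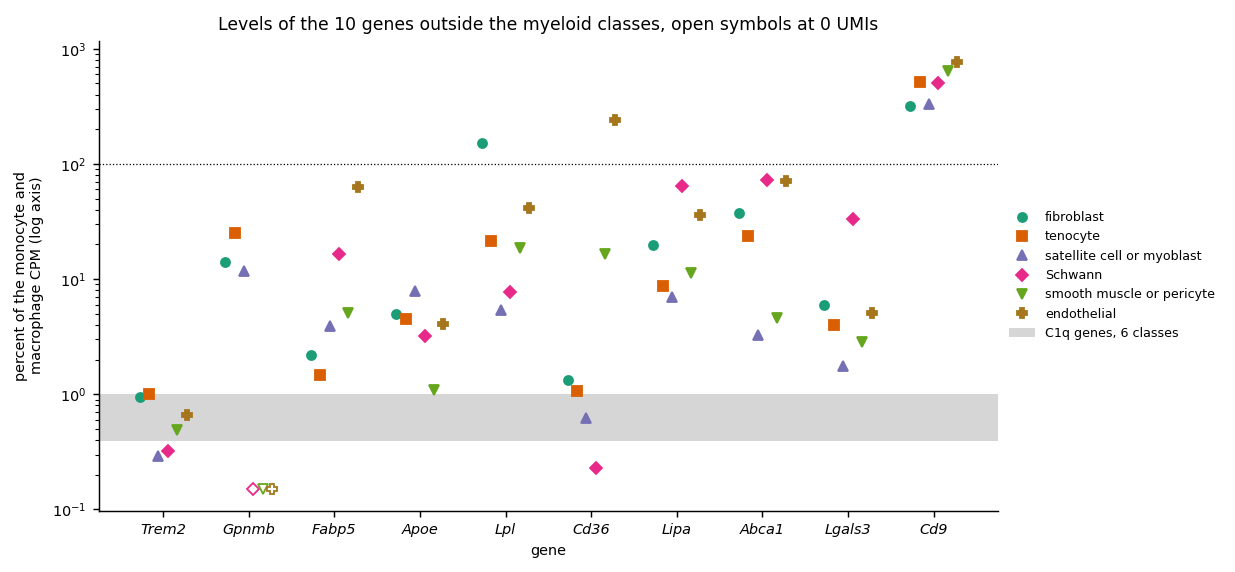
Level of each gene in 6 classes outside the myeloid lineage as a percent of its level in all monocytes and macrophages (log axis), where the grey band is the range of the C1q genes in the same classes, the dotted line is 100% and open symbols had no UMI. Trem2 lies within the C1q range or below it, Cd9 lies above 100% in every class, Lpl does so in fibroblasts and Cd36 in endothelial cells.

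Fibroblasts (1282 cells) were the largest class outside the myeloid lineage. Against them, 8 of the 10 genes were at least 2-fold higher in monocytes and macrophages, where 20.3% of 15151 genes tested were, and Cd9 was the 1 gene at least 2-fold lower, where 25.7% were. The log2 ratios were 6.73 (6.42 to 7.07) for Trem2, 6.25 (6.02 to 6.48) for Cd36, 5.51 (5.38 to 5.64) for Fabp5, 4.32 for Apoe, 4.07 for Lgals3, 2.83 for Gpnmb, 2.35 for Lipa and 1.42 for Abca1. With a minimum of 2000 UMIs per barcode in place of 5000, the ratio of Trem2 was 4.08, that of Cd36 3.59 and that of Fabp5 3.52, and with a minimum of 10000 they were 8.32, 7.62 and 6.35, all in the same direction. Lpl was higher in fibroblasts, at 632.3 CPM (621.1 to 643.6) against 420.1 (415.1 to 425.3), and Cd9 likewise with a log2 ratio of -1.66 (-1.70 to -1.62).

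Lpl also varied among the fibroblasts. Of these, 732 met several subset gates and had 766.7 CPM (751.2 to 782.6), and the subsets below hold the cells that met 1 gate. It was 1190 CPM (1117 to 1266) in 72 cells gated for Dkk2, Bmper and Lsamp, 528.6 (486.8 to 573) in 87 cells gated for Smoc2, Cxcl14 and Hsd11b1 and 290 (273.3 to 307.4) in 235 cells gated for Pi16 and Dpp4. In the Dkk2 Bmper Lsamp cells the C1q genes summed to 154.6 CPM, and Apoe stood at 1889 CPM (1797 to 1984). In Lpl the Dkk2 Bmper Lsamp fibroblasts thus stood above the monocytes and below the Spp1 F10 macrophages.

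A list of 61 other lipid handling genes in 8 groups was read beside the 10. Of 58 with enough UMIs, 17 were at least 2-fold higher in Spp1 F10 than in Lyve1 Folr2 macrophages, 10 were at least 2-fold lower and 31 lay between, where 6.40% of all genes tested were higher and 26.7% lower, with a median log2 ratio of 0.44, against 2.28 over the 10 genes and -0.329 over all genes tested. Of the 6 genes for fatty acid binding and activation, 3 were higher and none lower. Fabp4, a paralogue of Fabp5, was 1191 CPM against 12.7 (log2 ratio 6.55, 6.42 to 6.69), and Fabp3, the muscle and heart carrier, was 49.5 against 6.28. In endothelial cells, where Fabp4 is a known marker, it stood at 14922 CPM.

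Of 7 lipoprotein and lipid receptors tested, 2 were higher and 2 lower. Olr1, a receptor for oxidised low-density lipoprotein, had a log2 ratio of 4.92 (4.70 to 5.16), and the scavenger receptors Colec12 and Marco were lower, the former with -2.54 and the latter with no UMI against 94. Among adaptors and phagocytic receptors, Mertk, a receptor for apoptotic cells, was lower (-2.01, -2.17 to -1.84), and the Trem2 adaptor Tyrobp, named here after its values were seen, lay under 2-fold at 1932 CPM against 1395. The receptor genes thus did not stand on 1 side.

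Of the 9 efflux and apolipoprotein genes, 4 were higher and 4 lower. Abcg1, another cholesterol transporter, was 115.6 CPM against 10.1 (log2 ratio 3.51, 3.33 to 3.70), while Abca1 differed by 0.09. The apolipoprotein gene Apoc2 (2.98), which lies in the same cluster as Apoe, and Apoc1 (1.74) were higher, whereas Apoe was lower. Ch25h, which makes 25-hydroxycholesterol, had 3 UMIs against 992 (-5.69, -7.98 to -4.14), and Abca9 (-2.98), Cyp27a1 (-1.77) and the phospholipid transfer gene Pltp (-1.75) were lower too. Genes that share a role in efflux therefore differed in direction between these macrophages.

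Of the regulators, Nr1h3, which encodes the oxysterol receptor LXRα, was 36.7 CPM against 2.43 (3.92, 3.56 to 4.29). Mylip, a known target of that receptor, was lower at 58.5 against 142.1 (-1.28, -1.44 to -1.12). In lipid droplet storage and lipolysis, 3 of 9 genes were higher, with Hilpda, an inhibitor of lipolysis, at 3.48 (3.36 to 3.59), and 1 was lower, the hormone-sensitive lipase gene Lipe at -1.66. In lysosomal lipid handling, 1 of 7 was higher, Psap, which encodes the saposins, at 2.01 (1.99 to 2.04), and 1 was lower, the sphingomyelinase gene Smpd1 at -1.02 (-1.56 to -0.51). The stearoyl desaturase gene Scd2 (3.88) was the 1 gene of 6 under sterol synthesis that was higher. The remaining 7 higher genes, smaller in ratio and named after their values were seen, were Plin2 (1.56), Apoc4 (1.52), Pparg (1.46), Slc27a1 (1.37), Axl (1.33), Lrp1 (1.30) and Soat1 (1.26).

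Against Ly6c2 Chil3 monocytes the same list gave 10 higher and 7 lower of 55 tested, where 6.42% and 6.45% of all genes tested were, with a median log2 ratio of 0.24 beside 2.08 for the 10 genes and 0.0136 for all genes tested. Against fibroblasts 30 of 61 were higher and 10 lower, where 20.3% and 25.7% of all genes tested were. Against dendritic cells 26 of 60 were higher and 3 lower, where 24.8% and 7.69% were. Both of these comparisons use the same macrophage cells.

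The genes whose level over the 14 classes of at least 50 cells was most like that of each member were found by Pearson's r of log2(CPM + 1) among 9708 genes. These are class values from 1 library and carry no statement on shared function. For Trem2 they were 4930430E12Rik (0.991), Zfand2a (0.986) and Tfec (0.985), for Cd36 Hk3 (0.982), Adap2os (0.975) and Dnase2a (0.971), and for Abca1 App (0.983), Fgd4 (0.961) and Dennd4c (0.958). F7 (0.945) and Comtd1 (0.910) were among those nearest to Gpnmb, and Cstb (0.952) and Galns (0.949) among those nearest to Fabp5.

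For Lpl the nearest were Plxna1 (0.943), Slc36a4 (0.930) and Mitf (0.928), and for Apoe Tom1 (0.969), Cacna1d (0.960) and Mfsd11 (0.952). Lipa was nearest to Grik3 (0.974) and to the proton pump genes Atp6v1c1 (0.971) and Atp6v1b2 (0.968), and Lgals3 to the proton pump gene Atp6v1f (0.962), to Abcg1 (0.961) and to Rhoa (0.954). Cd9 was least like any other gene, with 0.874 for Hypk, 0.849 for Jtb and 0.839 for Bola3. Among the 10 themselves, the pattern of Cd9 ran against that of Trem2 (-0.53) and Apoe (-0.58), and the closest pair over these 14 classes was Trem2 with Cd36 (0.93). The 38 endothelial cells, in which Cd36 stood at 1498 CPM and Trem2 at 2.93 CPM, are not among those classes.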

How the data were processed

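Raw UMI counts per gene and barcode were deposited by the authors as a matrix of 32287 genes. Per the labels the reads were aligned to mm10 with Cell Ranger 7.1.0 and handled in Seurat 4.30, while the matrix header names Cell Ranger 8.0.1. The study's methods describe removal of ambient RNA and doublets, but the deposited counts were whole numbers as counted. No doublet caller was run here, and barcodes that met the gates of several lineages were left out.

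Barcodes with at least 5000 UMIs, more than 200 genes and under 10% mitochondrial UMIs were gated by at least 5 UMIs over at least 2 marker genes (10 UMIs for myeloid and 20 for erythroid cells, 20 C1q and 40 MHC class II UMIs for that macrophage class). These minima were set after the marker sums were seen. The members and lists were chosen with earlier results of these data known. Counts were summed per class and given as CPM with an exact Poisson 95% interval, ratios of classes with the exact conditional interval, and shares after thinning to 5000 UMIs with the exact Clopper-Pearson interval. All cover counting error only, and PCR or cell-to-cell error is not in them. Genes entered a comparison with at least 50 UMIs in both classes together, and 2-fold was the call. With 1 library there was no test. Of the list of other lipid genes, up to 10 per direction with the largest ratio between Spp1 F10 and Lyve1 Folr2 macrophages were named. For each member the 3 genes most like it over the classes were named, apart from 2 that are not reported here. Scripts used python 3.11.15, numpy 2.4.6, scipy 1.17.1 and pandas 2.3.3 and were tested on simulated data. Alternatives were other minima of depth, markers and counts, other filters, weightings and thinning, and, chosen after seeing the data, centred ratios and removal of barcodes shared with the GFP- library.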

Additional observations from a re-analysis of the deposited data

Results flagged for a closer look

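The 27506 barcodes under 5000 UMIs, which no comparison used, also carried the 10 genes, which summed to 12860 CPM there, at a median depth of 1751 UMIs, against 15834 CPM in the deeper barcodes. Whether these UMIs come from shallow macrophages or from free RNA was not tested.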

How the results depend on the processing

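No paired analysis was possible because 1 library was analysed and it has no replicate. None of the 40 ratios of the 10 genes changed sign under the 9 alternatives that bear on them. The thinning depths were run on shares and correlations, and the minimum of 10 UMIs per gene on the counts of genes past 2-fold. The count of genes at least 2-fold lower in Spp1 F10 than in Lyve1 Folr2 macrophages, 1 gene (Apoe), was 0 with the deepest 10% of each class left out (Apoe -0.92), 0 with the mean of per-cell CPM (-0.84) and 0 with ratios centred on the median of all genes (-0.70). Centring, chosen after the data were seen, also put Trem2 (1.25) and Cd36 (1.03) past 2-fold. The largest shift in a log2 ratio was 2.66 with at least 2000 UMIs, where Cd36 over fibroblasts went from 6.25 to 3.59, and 1.59 with at least 10000 UMIs, where Trem2 over fibroblasts went from 6.73 to 8.32. Keeping barcodes that met 2 gates moved a ratio by up to 1.85 (Trem2 over dendritic cells, from 6.56 to 4.71), the mean of per-cell CPM by up to 1.17 (Fabp5 over fibroblasts, from 5.51 to 4.34) and the doubled marker minimum by up to 0.93 (Lpl over dendritic cells, from 4.16 to 5.09). The share of all genes at least 2-fold higher in Spp1 F10 than in Lyve1 Folr2 macrophages was 12.1% when centred, that against monocytes was 9.74% with at least 10 UMIs per gene, and the share lower in monocytes and macrophages than in dendritic cells was 20.1% with at least 10 UMIs and 11.8% when centred. Without the barcodes shared with the GFP- library no ratio moved by more than 0.04. The cause of these shifts was not tested. Thinning to 2000 UMIs moved 19 of 20 shares, and no thinning moved 22 of 101 values. No other depth was tried on the levels of the 38 endothelial and 11 Ccr7 Fscn1 dendritic cells.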
